A study of Homo sapiens with 16 samples.

Results

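The genes described here encode the proteins of the spliceosomal small nuclear ribonucleoprotein particles (snRNPs) and of their relatives, the Lsm proteins. They were chosen by symbol: names beginning with SNRPA to SNRPG, SNRNP, SF3A, SF3B, PRPF, LSM or U2AF, without pseudogenes, antisense or intronic transcripts and copies on alternate sequences. Of 124 rows with such a name, 48 were left out as pseudogenes (a symbol ending in P and a number) and 18 for their alternate sequence. That left 58 of 63653 genes, and 56 of them passed the filter on low values and length that left 12846 genes to test. The 7 SNRNP symbols with a number, such as SNRNP70, end in those same characters by accident and were kept. LSMEM1 and LSMEM2, whose products are membrane proteins that share only the letters of the name, stayed below the filter at means of 0.802 and 0.392 FPKM and appear below only in the summed level of the 58 members and among the promoters.

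The cells were HCT116, an established line from a human colon carcinoma. One group was treated with 0.5 µM BIX 01294, a small-molecule inhibitor of the histone H3 lysine 9 methyltransferase G9a (gene symbol EHMT2), for 72 h. Another was transfected, by a lipid reagent, with an siRNA (small interfering RNA) to G9a at 10 nM, also for 72 h. Each treatment had its own control group, the inhibitor controls and the siRNA controls, and the sources used here do not give what those cells received. No group carries an engineered allele. Each of the 4 groups held 2 libraries, and each library was sequenced in 2 runs, which were averaged and counted once. Whether the 2 libraries of each group stem from separate cultures is not stated in the labels, so a p-value here speaks only of the spread between libraries, which may be technical.

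Splicing removes introns from precursor messenger RNA in a machine that is assembled anew on every intron. The U1 snRNP marks the start of the intron, the U2 snRNP with U2AF marks its branch point and end, and the tri-snRNP of U4/U6 and U5 then joins and is rearranged into the catalytic form. Each particle is a small nuclear RNA wrapped by a ring of Sm proteins, or of Lsm proteins for U6, with proteins of its own added, and these proteins are housekeeping components of the nucleus.

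Levels are FPKM per gene (fragments per kilobase of transcript and 1000000 mapped), scaled between libraries, and differences are on the scale of log2(FPKM + 1) with the standard error (SE) from limma. A gene is called where limma's two-sided test gave a Benjamini-Hochberg adjusted p under 0.05 over all 12846 genes. The siRNA lowered its target: EHMT2 (chromosome 6, 31847536 to 31865464 in hg19) stood at 4.68 and 4.54 FPKM in the siRNA libraries, against 15.9 and 17.8 in the siRNA controls. It stood at 19.7 and 18.9 FPKM in the inhibitor libraries, against 24.7 and 21.0 in the inhibitor controls. In general composition the groups differed too. MALAT1, an abundant nuclear long noncoding RNA, had 59.7 and 55.5 FPKM in the inhibitor libraries against 230 and 189 in the inhibitor controls, while the 4 siRNA and siRNA control libraries had 57.4 to 78.4. The 13 mitochondrially encoded protein genes summed to 6003 and 5391 FPKM in the inhibitor libraries against 13141 and 10880 in the inhibitor controls. RNA28S5, a ribosomal RNA gene, had 2365 and 1045 FPKM in the inhibitor libraries against 210 and 40.8 in the inhibitor controls. It had 5174 and 18926 FPKM in the siRNA libraries against 7365 and 10797 in the siRNA controls, so both inhibitor libraries lay between the inhibitor controls and the 4 siRNA and siRNA control libraries. The epithelial markers KRT8, KRT18 and EPCAM were abundant in all 8 libraries, CDH1 was low (0.623 to 2.02 FPKM), and CDH17 did not exceed 0.0215. The 7 epithelial markers summed to 459 and 473 FPKM in the inhibitor libraries against 552 and 553 in the inhibitor controls. In that comparison KRT8 (-0.41, limma adjusted p 0.000256), EPCAM (-0.20, limma adjusted p 0.0427) and CDH1 (-0.61, limma adjusted p 0.0333) fell. KRT18 (-0.09, limma adjusted p 0.175), CLDN4 (0.15, limma adjusted p 0.234) and CLDN3 (0.07, limma adjusted p 0.72) were not called, and CDH17 was too low to be tested. The 7 fibroblast markers together reached 1.75 to 3.76 FPKM, with LUM at 0 in all 8 libraries. In a bulk sample, fewer cells with a transcript and less of it per cell cannot be told apart.

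The snRNP protein genes were expressed well above the typical gene. The mean of the 56 members over the 8 libraries ran between 3.59 FPKM for LSM10 and 587 for SNRPD2, with a median of 38.0, against a median of 8.49 over all genes tested. Summed over all 58 members, the level was 3576 and 3688 FPKM in the inhibitor libraries against 3644 and 3689 in the inhibitor controls. The siRNA libraries summed to 3670 and 3674 FPKM, against 3758 and 3648 in the siRNA controls. The total of the group was thus within the same range in all libraries, and the differences below lie between its members.

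In the inhibitor libraries, against the inhibitor controls, 14 of the 56 members rose, 23 fell and 19 were not called. The median difference of the members was -0.12, beside 0.01 over all genes. It was -0.0391 without inhibitor control library 2 and -0.0598 with quantile normalization. Of all genes tested, 36.5% were called in this comparison, 17.7% as higher and 18.7% as lower. Among the members 25.0% were higher and 41.1% lower, and no test of that excess was made, since the members were chosen with results of these data known. Among the called members the increases reached at most 0.55, while 7 of the 56 members had a decrease larger than 1 in log2. A called decrease of that depth was found in 2.01% of all genes. The matching share of increases over all genes was not counted. Whether this asymmetry is particular to the members is therefore not known. The MALAT1, ribosomal RNA, summed mitochondrial and summed epithelial marker levels given above moved with the same contrast. Their part in these differences was not tested. With the FPKM as deposited, without scaling, 7 members were higher and 22 lower, or 24.1% higher among the called members against 37.8% with scaling. Over all called genes the share moved likewise, to 34.8% higher without scaling against 48.6% with it.

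**Figure D1:**
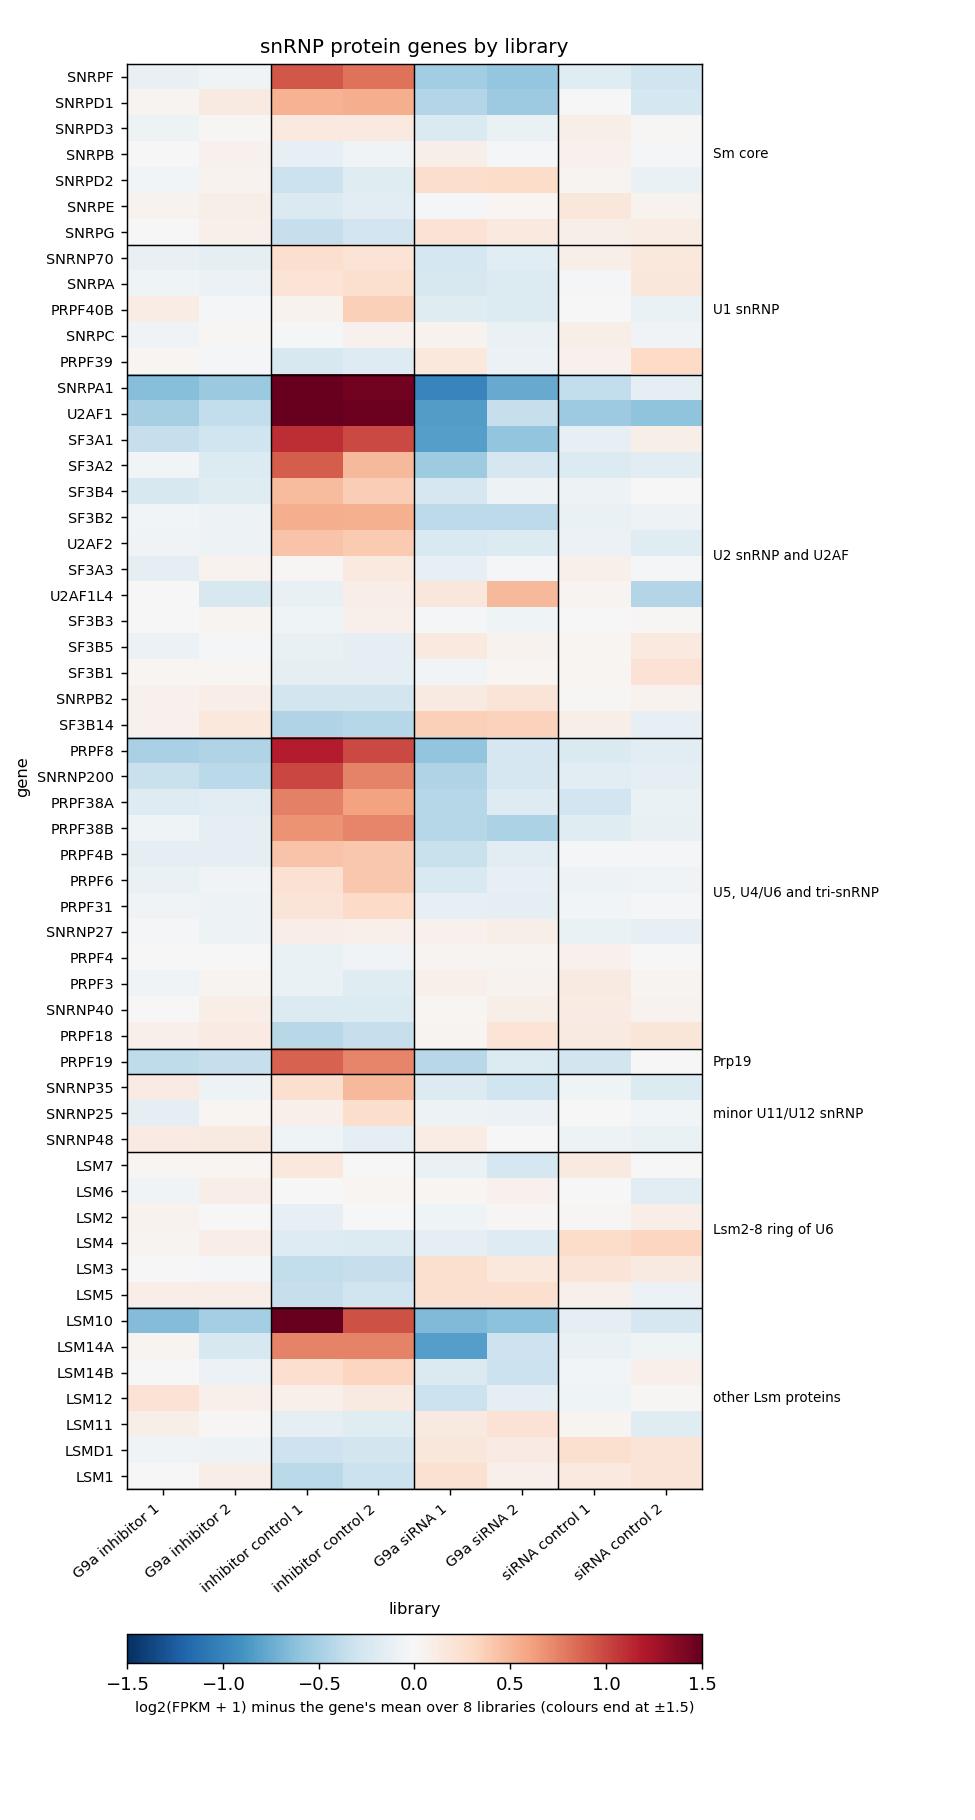
Level of 55 of the 56 tested snRNP protein genes (rows, grouped by role and ordered by the inhibitor difference) in the 8 libraries (columns), as log2(FPKM + 1) minus the gene's mean over the 8 libraries; blue is below the mean and red above it. The 2 inhibitor control columns carry the strongest colours: both lie above all other 6 libraries for 25 of these genes and below them for 18.

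The Sm core is a ring of 7 proteins, each present once, that closes around the U1, U2, U4 and U5 RNAs. Their transcripts were not at equal levels per length. SNRPD2 had 567 and 606 FPKM in the inhibitor libraries, 466 and 514 in the inhibitor controls, 696 and 706 in the siRNA libraries, and 600 and 542 in the siRNA controls. It was the most abundant of all members, with no library of any other member reaching its lowest value. SNRPB (209 to 242 FPKM), SNRPG (173 to 255) and SNRPE (160 to 209) followed with overlapping ranges. SNRPD3 (84.5 to 109) and SNRPD1 (52.6 to 113) also overlapped, and SNRPF came last at 17.0 to 50.2 FPKM. Rows for 20 SNRPG pseudogenes together held 29.2% to 35.0% as much signal as the gene itself, 9 for SNRPE held 12.2% to 19.2%, and 4 for SNRPF held 6.06% to 29.8%, so these levels depend on how similar sequences were assigned.

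With the inhibitor, against its control, 3 Sm genes rose and 3 fell, or 42.9% each, beside 17.7% and 18.7% of all genes. SNRPF (chromosome 12, 96252706 to 96297606) had 24.0 and 24.8 FPKM in the inhibitor libraries, against 50.2 and 46.2 in the inhibitor controls, a log2 difference of -0.95 ± 0.07 (SE, limma adjusted p 3.56e-05). Its siRNA libraries had 17.8 and 17.0 FPKM, against 22.8 and 20.8 in the siRNA controls. The inhibitor controls were thus the only libraries above 25 FPKM. SNRPD1 had 79.6 and 84.7 FPKM in the inhibitor libraries against 111 and 113 in the inhibitor controls (-0.44 ± 0.08, limma adjusted p 0.00348). SNRPD3 fell by a smaller amount (-0.17 ± 0.06, limma adjusted p 0.0421), a call lost in 11 of 18 alternative analyses (adjusted p up to 0.234), among them the removal of any inhibitor or inhibitor control library. SNRPG had 221 and 233 FPKM in the inhibitor libraries against 173 and 180 in the inhibitor controls (0.36 ± 0.05, limma adjusted p 0.000741), with 255 and 244 in the siRNA libraries and 234 and 237 in the siRNA controls. SNRPE rose with 193 and 198 FPKM in the inhibitor libraries against 160 and 166 in the inhibitor controls (0.26 ± 0.05, limma adjusted p 0.0045), and had 183 and 190 in the siRNA libraries against 209 and 194 in the siRNA controls. SNRPD2 also rose (0.26 ± 0.07, limma adjusted p 0.0154), but not without inhibitor library 2 or inhibitor control library 1 (adjusted p up to 0.159 over all alternatives). SNRPB was not called (0.12 ± 0.06, limma adjusted p 0.128). Genes whose products sit side by side in 1 ring therefore differed in opposite directions. In each of the 6 called genes the inhibitor and inhibitor control libraries did not overlap. The 6 were picked by their calls in this same comparison, so the lack of overlap adds no support.

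**Figure D2:**
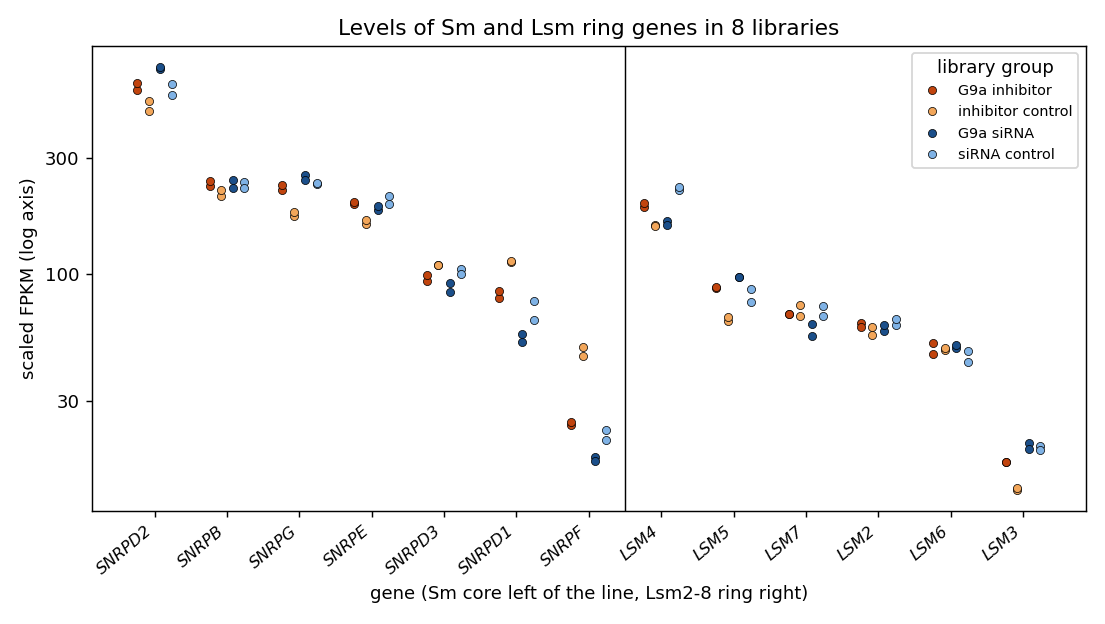
Scaled FPKM (log axis) of the 7 Sm core genes and the 6 Lsm2-8 ring genes in each of the 8 libraries, 1 point per library and 1 colour per group. SNRPD2 lies highest at 466 to 706 FPKM and LSM3 lowest at 13.0 to 20.2, and the inhibitor controls lie above the other groups for SNRPF and SNRPD1 and below them for SNRPG and LSM3.

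The U1 snRNP is the first particle to bind the intron. SNRNP70, which binds a stem-loop of U1 RNA, had 59.6 and 58.6 FPKM in the inhibitor libraries, against 76.1 and 74.1 in the inhibitor controls (-0.34 ± 0.05, limma adjusted p 0.0016). SNRPA, which binds another stem-loop, fell by 0.30 ± 0.07 in log2 (limma adjusted p 0.00924), a call lost without inhibitor library 2 (adjusted p up to 0.0602 over the alternatives). SNRPC, the member that contacts the paired splice site, was the most abundant at a mean of 106 FPKM and showed no difference larger than its error. It had 102 and 107 FPKM in the inhibitor libraries, 104 and 110 in the inhibitor controls, 110 and 98.6 in the siRNA libraries, and 112 and 102 in the siRNA controls. PRPF39 and PRPF40B, a pair of U1-associated proteins, were not called at 0.23 ± 0.10 and -0.16 ± 0.12.

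The U2 snRNP and U2AF held the largest differences. Of 14 members, 7 fell and 2 rose in the inhibitor libraries relative to the inhibitor controls, with a median of -0.30. SNRPA1 (chromosome 15, 101821715 to 101835487) binds U2 RNA as a partner of SNRPB2. It had 6.28 and 6.71 FPKM in the inhibitor libraries, against 44.0 and 29.8 in the inhibitor controls, a log2 difference of -2.31 ± 0.17 (SE, limma adjusted p 3.37e-05). Its siRNA libraries had 4.70 and 5.67 FPKM, against 7.74 and 9.32 in the siRNA controls. No library outside the inhibitor controls exceeded 10 FPKM. SNRPB2, by contrast, rose: it averaged 59.6 ± 1.08 FPKM in the inhibitor libraries and 46.2 ± 0.0189 in the inhibitor controls (SD, n = 2 each; 0.36 ± 0.05, limma adjusted p 0.000916). The 2 partners thus differed in opposite directions, and the inhibitor controls were the lowest libraries for SNRPB2 and the highest for SNRPA1.

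U2AF1 (chromosome 21, 44513066 to 44527697) encodes the small U2AF subunit, which reads the AG at the end of the intron. It had 12.7 and 13.9 FPKM in the inhibitor libraries, against 62.9 and 52.2 in the inhibitor controls (-2.03 ± 0.15, limma adjusted p 3.42e-05). The siRNA libraries had 9.77 and 14.1 FPKM, against 12.2 and 11.7 in the siRNA controls, so that 6 libraries lay between 9.77 and 14.1 FPKM and the inhibitor controls far above them. Its partner U2AF2, which binds the pyrimidine tract, fell less, with 57.9 and 56.8 FPKM in the inhibitor libraries against 81.3 and 79.1 in the inhibitor controls (-0.48 ± 0.05, limma adjusted p 0.00029). It had 50.9 and 51.9 FPKM in the siRNA libraries against 56.5 and 52.8 in the siRNA controls. U2AF1L4, a relative of U2AF1, was low at a mean of 4.37 FPKM and was not called (-0.11 ± 0.18).

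SF3A and SF3B are the protein complexes that hold U2 on the branch point. SF3A1 (chromosome 22, 30727977 to 30752936) had 14.4 and 15.0 FPKM in the inhibitor libraries, against 41.2 and 37.8 in the inhibitor controls (-1.37 ± 0.10, limma adjusted p 3.42e-05). SF3A2 fell by 0.82 ± 0.14 in log2 (limma adjusted p 0.00231), and SF3A3 was not called (-0.13 ± 0.08). The SF3A2 locus overlaps that of PLEKHJ1 (mean 27.7 FPKM) for 1184 bases. In SF3B, SF3B4 and SF3B2 fell by 0.63 ± 0.08 and 0.60 ± 0.05 in log2. SF3B1, the large subunit that clamps the branch helix, was the most abundant U2 protein gene at a mean of 150 FPKM. It had 153 FPKM in both inhibitor libraries and 135 in both inhibitor controls (0.18 ± 0.06, limma adjusted p 0.051, not called), with 145 and 152 in the siRNA libraries and 153 and 174 in the siRNA controls. SF3B3 and SF3B5 were not called either, at 0.02 ± 0.06 and 0.07 ± 0.06. SF3B14, the older symbol of SF3B6, encodes the small subunit that lies at the branch point adenosine. It showed the largest increase of any member: 131 and 140 FPKM in the inhibitor libraries against 92.1 and 92.9 in the inhibitor controls (0.55 ± 0.07, limma adjusted p 0.00051).

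The sequence upstream of these genes is shown for the members at both ends of that range, to set genes of 1 particle that differed in opposite directions side by side. RefSeq promoters (GRCh38.p14, 250 bases before to 50 after the start of the gene, on the strand of the gene) were found for 48 of the 58 members. Capitals mark the ETS core CCGGAAG and the CCAAT box CCAAT, or their reverse complements CTTCCGG and ATTGG. The SNRPA1 promoter (chr15:101295199-101295498, minus strand) holds the ETS core with its first base at position -113 from the start and the CCAAT box at -29. The SF3A1 promoter (chr22:30356845-30357144, minus strand) holds the ETS core at -49. The U2AF1 promoter (chr21:43107521-43107820, minus strand) holds neither. The SF3B14 promoter (chr2:24076277-24076576, minus strand) holds the ETS core at -159, -128 and -19.
SNRPA1: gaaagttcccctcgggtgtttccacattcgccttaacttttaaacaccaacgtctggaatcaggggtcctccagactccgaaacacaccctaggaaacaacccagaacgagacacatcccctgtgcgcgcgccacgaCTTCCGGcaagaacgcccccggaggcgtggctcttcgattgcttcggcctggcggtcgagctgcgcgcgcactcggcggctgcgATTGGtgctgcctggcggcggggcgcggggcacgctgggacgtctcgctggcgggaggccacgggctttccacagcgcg
SF3A1: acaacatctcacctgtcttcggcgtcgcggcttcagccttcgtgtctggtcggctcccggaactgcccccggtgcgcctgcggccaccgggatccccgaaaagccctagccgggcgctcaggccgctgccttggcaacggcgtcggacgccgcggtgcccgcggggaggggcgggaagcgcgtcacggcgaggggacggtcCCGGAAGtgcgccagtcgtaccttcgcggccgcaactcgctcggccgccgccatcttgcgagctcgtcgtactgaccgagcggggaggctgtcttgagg
U2AF1: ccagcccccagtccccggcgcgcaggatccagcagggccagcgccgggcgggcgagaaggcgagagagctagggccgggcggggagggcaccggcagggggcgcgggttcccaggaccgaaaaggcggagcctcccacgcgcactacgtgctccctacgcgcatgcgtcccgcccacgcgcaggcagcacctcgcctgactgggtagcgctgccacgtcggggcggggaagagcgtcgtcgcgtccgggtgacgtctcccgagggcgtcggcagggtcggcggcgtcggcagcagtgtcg
SF3B14: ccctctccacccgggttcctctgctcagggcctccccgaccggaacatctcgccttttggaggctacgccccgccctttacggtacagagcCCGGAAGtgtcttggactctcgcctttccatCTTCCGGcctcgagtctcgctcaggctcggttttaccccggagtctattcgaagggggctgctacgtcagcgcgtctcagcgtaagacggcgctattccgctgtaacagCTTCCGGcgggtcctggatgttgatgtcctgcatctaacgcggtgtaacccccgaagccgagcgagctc

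Over the 48 promoters, on either strand, the ETS core was present in 19 (39.6%), against 10.3% of all 35116 promoters in the table. CCAAT was present in 20 (41.7%), against 34.6% of all promoters. The E-box CACGTG was in 3 (6.25%, against 7.26%). The TATA box TATAAA was in 1 (2.08%), against 11.5% of all promoters. For each member 1 promoter was counted, while the 35116 were not limited to 1 per gene or to genes expressed here. The shares are therefore not like for like, and promoters of the tested genes were not used as a background. The ETS core stood in 7 of the 12 promoters of members that rose and in 8 of the 20 of members that fell, so it was present on both sides. The 48 promoters include those of LSMEM1, which holds none of these motifs, and LSMEM2, which holds 1 of the 3 E-boxes and a CCAAT box. These are letter matches in a fixed window, and binding was not measured.

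The U5, U4/U6 and tri-snRNP genes had 7 of 12 members lower and 2 higher in the inhibitor libraries, with a median of -0.35. That was 58.3% lower and 16.7% higher, beside 18.7% and 17.7% of all genes. The largest decreases of the 12 were in the 2 big U5 proteins. PRPF8 (chromosome 17, 1553923 to 1588176), the scaffold of the catalytic centre, had 18.1 and 18.7 FPKM in the inhibitor libraries, against 59.8 and 52.3 in the inhibitor controls (-1.55 ± 0.11, limma adjusted p 2.88e-05). It had 16.8 and 21.5 FPKM in the siRNA libraries, against 22.0 and 23.1 in the siRNA controls. SNRNP200 (BRR2, chromosome 2, 96940074 to 96971297), the helicase that unwinds U4 from U6, had 20.3 and 19.4 FPKM in the inhibitor libraries against 53.0 and 44.1 in the inhibitor controls (-1.24 ± 0.10, limma adjusted p 4.68e-05). Its siRNA libraries had 18.7 and 21.7 FPKM, against 22.8 and 23.3 in the siRNA controls. In both genes the inhibitor controls lay above 40 FPKM and the other 6 libraries below 25. SNRNP40, a WD-repeat protein of U5 and the most abundant of the 12, went the other way with 84.1 and 89.6 FPKM in the inhibitor libraries against 72.4 and 72.6 in the inhibitor controls (0.26 ± 0.05, limma adjusted p 0.006). It had 85.4 and 89.2 FPKM in the siRNA libraries against 91.5 and 87.0 in the siRNA controls, and its call was lost without inhibitor library 2 (adjusted p up to 0.122 over the alternatives).

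PRPF38A, a protein of the complex formed just before activation, had 10.4 and 10.7 FPKM in the inhibitor libraries against 20.9 and 18.8 in the inhibitor controls (-0.85 ± 0.10, limma adjusted p 0.000442), with 8.66 and 10.4 in the siRNA libraries and 9.69 and 11.1 in the siRNA controls. Its relative PRPF38B fell by 0.80 ± 0.08 in log2, and PRPF4B, a kinase that phosphorylates tri-snRNP proteins, fell by 0.56 ± 0.07. PRPF6, which bridges U5 and U4/U6, fell by 0.39 ± 0.07, and its locus lies across ZNF512B for 51966 bases. The PRPF38A locus overlaps that of ZCCHC11 (mean 17.1 FPKM) for 12558 bases. PRPF31, which binds U4 RNA, fell by 0.30 ± 0.06. The U4/U6 partners PRPF3 and PRPF4 were not called, at 0.14 ± 0.06 and 0.07 ± 0.05, nor was SNRNP27 at -0.14 ± 0.06. PRPF18, a factor of the second catalytic step, had 12.3 and 12.8 FPKM in the inhibitor libraries against 8.52 and 8.93 in the inhibitor controls (0.48 ± 0.08, limma adjusted p 0.00218), with 12.02 and 13.7 in the siRNA libraries and 13.0 and 13.3 in the siRNA controls. For PRPF18 the inhibitor controls were the 2 lowest libraries of all 8.

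PRPF19, the ubiquitin ligase that gives the Prp19 complex its name, had 16.4 and 16.8 FPKM in the inhibitor libraries, against 40.6 and 36.5 in the inhibitor controls (-1.17 ± 0.11, limma adjusted p 0.000114). It had 16.0 and 18.6 FPKM in the siRNA libraries against 17.6 and 21.7 in the siRNA controls, so that the inhibitor controls again stood alone. The minor spliceosome, which removes a rare class of introns, was represented by 3 proteins of its U11/U12 particle. SNRNP25 was the most abundant, with 16.6 and 18.9 FPKM in the inhibitor libraries, 19.4 and 22.4 in the inhibitor controls, 17.4 and 17.3 in the siRNA libraries, and 18.4 and 17.8 in the siRNA controls. It was not called (-0.23 ± 0.09, limma adjusted p 0.0691), nor was SNRNP35 (-0.34 ± 0.13, limma adjusted p 0.0585). SNRNP48 was higher (0.23 ± 0.07, limma adjusted p 0.0411), a call lost in 10 of 18 alternatives (adjusted p up to 0.256), among them the removal of any inhibitor or inhibitor control library.

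The Lsm2-8 ring, which caps the end of U6 RNA, had no decrease in the inhibitor libraries: 3 of its 6 members rose and 3 were not called. LSM5 had 87.7 and 88.0 FPKM in the inhibitor libraries against 64.2 and 66.3 in the inhibitor controls (0.42 ± 0.06, limma adjusted p 0.000873), with 96.9 and 96.7 in the siRNA libraries and 86.3 and 77.0 in the siRNA controls. LSM3, the lowest of the ring, had 16.9 and 16.8 FPKM in the inhibitor libraries against 13.0 and 13.2 in the inhibitor controls (0.34 ± 0.07, limma adjusted p 0.00378). Rows for 4 LSM3 pseudogenes together held 0.0% to 14.2% as much signal as the gene itself, depending on the library. LSM4, the highest of the ring, had 188 and 196 FPKM in the inhibitor libraries against 159 and 157 in the inhibitor controls (0.28 ± 0.05, limma adjusted p 0.00201). The calls of LSM3 and LSM4, and those of SNRPE, SNRPD2, SNRPD3, SNRNP40, SNRNP48 and LSMD1, were lost with the FPKM as deposited. LSM2 (55.9 to 65.5 FPKM over the 8 libraries), LSM6 (43.4 to 52.0) and LSM7 (55.7 to 74.8) were not called, at 0.09 ± 0.06, 0.01 ± 0.07 and -0.05 ± 0.08. The seventh position of the ring belongs to LSM8, which the files list under the older symbol NAA38, outside the symbol rule. That row had 33.7 and 31.9 FPKM in the inhibitor libraries against 26.0 and 25.8 in the inhibitor controls (0.33, limma adjusted p 0.00634).

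Other Lsm proteins work outside the spliceosome. LSM10 and LSM11 replace a pair of Sm proteins in the U7 snRNP, which cuts the ends of histone messenger RNAs. LSM10 (chromosome 1, 36856839 to 36863493) had 1.34 and 1.60 FPKM in the inhibitor libraries, against 12.5 and 6.17 in the inhibitor controls, with 1.32 and 1.41 in the siRNA libraries and 2.33 and 2.11 in the siRNA controls. Its difference was -1.99 ± 0.24 (SE, limma adjusted p 0.000442), and its level rested on an implied 9.03 fragments in the library where that number was lowest. The inhibitor controls differed from each other more than the 2 LSM10 libraries of any other group, yet did not overlap the rest. LSM11 was not called (0.22 ± 0.11). LSM1 takes the place of LSM8 in the cytoplasmic ring that promotes messenger RNA decapping. It had 38.3 and 41.0 FPKM in the inhibitor libraries against 28.6 and 30.4 in the inhibitor controls (0.41 ± 0.07, limma adjusted p 0.00213), with 45.2 and 40.3 in the siRNA libraries and 42.5 and 43.9 in the siRNA controls. LSM14A, a component of cytoplasmic processing bodies, had 21.7 and 17.7 FPKM in the inhibitor libraries against 36.0 and 35.9 in the inhibitor controls (-0.84 ± 0.15, limma adjusted p 0.00264), with 11.4 and 16.7 in the siRNA libraries and 19.6 and 20.0 in the siRNA controls. Its relative LSM14B fell by 0.33 ± 0.08 in log2, a call lost without inhibitor library 2 or inhibitor control library 2 (adjusted p up to 0.101). LSMD1, the older symbol of NAA38, an accessory subunit of an N-terminal acetyltransferase, had 74.3 and 73.5 FPKM in the inhibitor libraries against 62.1 and 63.8 in the inhibitor controls. It had 87.0 and 84.5 FPKM in the siRNA libraries against 91.5 and 88.5 in the siRNA controls, and its inhibitor difference was 0.23 ± 0.05 (limma adjusted p 0.00626). LSM12 was not called (0.05 ± 0.09), and a pseudogene row held 14.7% to 31.7% of its signal.

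**Figure D3:**
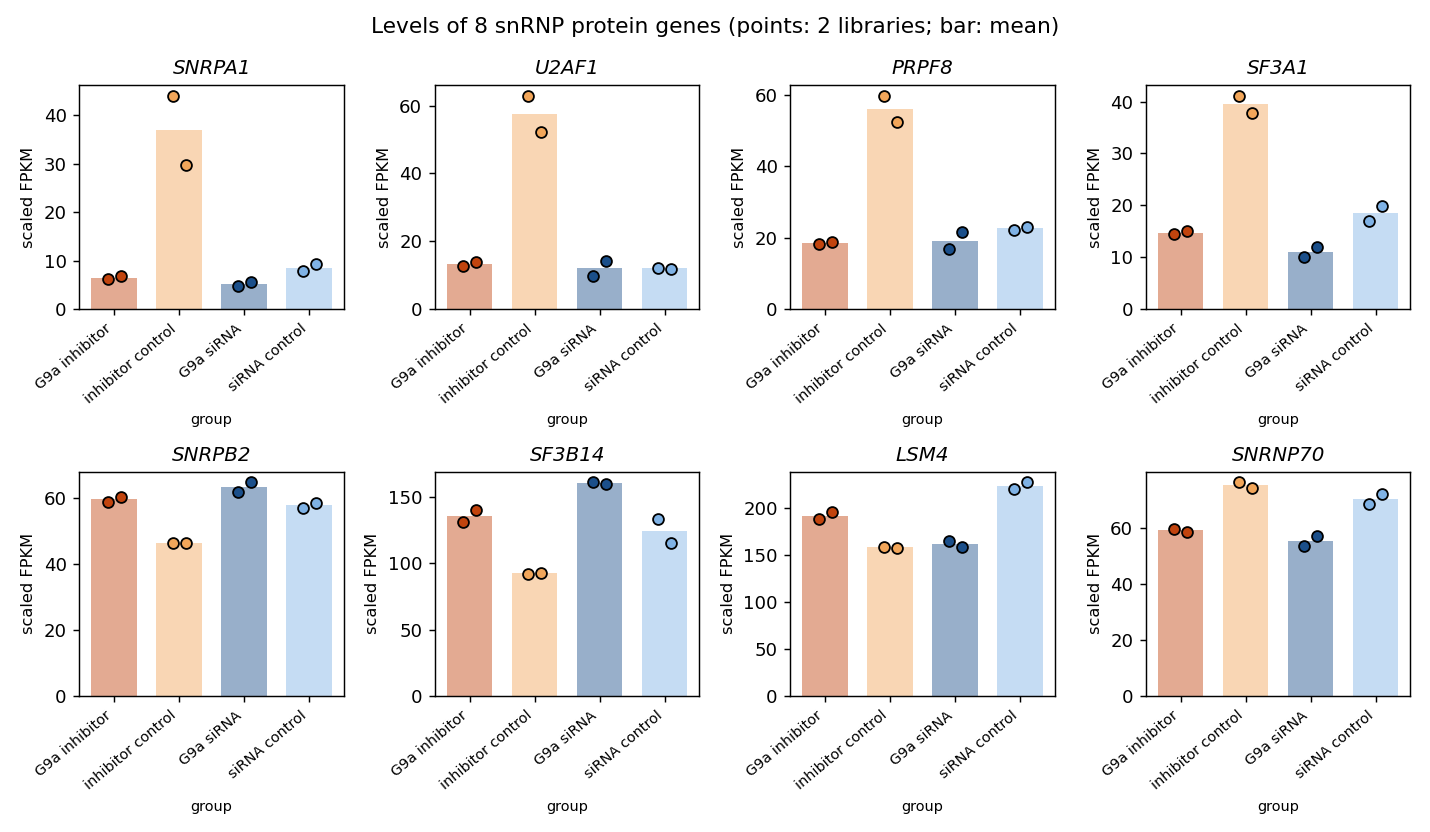
Scaled FPKM of 8 snRNP protein genes by group, with 1 point per library and the bar at the mean of 2 libraries. For SNRPA1, U2AF1, PRPF8 and SF3A1 the inhibitor controls lie above all other libraries, for SNRPB2 and SF3B14 below them, and for LSM4 the siRNA libraries (165 and 159 FPKM) lie below the siRNA controls (221 and 227).

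The inhibitor controls were the libraries that stood apart for most members. Both inhibitor control libraries lay above all other 6 libraries for 25 of the 56 members (44.6%; 25.8% of all genes) and below all of them for 19 (33.9%; 25.8% of all genes). Among the other 6 libraries the highest value of a member exceeded its lowest by a median of 1.25 times and at most 2.22 times. The siRNA controls were therefore also set against the inhibitor controls. In that comparison 16 members were higher and 22 lower, beside 19.2% and 19.0% of all genes (38.3% in either direction). The difference was -1.97 ± 0.17 for SNRPA1 and -2.17 ± 0.15 for U2AF1, beside -2.31 and -2.03 for the inhibitor against the same control libraries. PRPF8 stood at -1.27 ± 0.11 beside -1.55, and SF3A1 at -1.06 ± 0.10 beside -1.37. These comparisons share the inhibitor controls, so their values are not independent of each other. In FPKM as deposited, 5 members were higher and 23 lower in the siRNA controls, and the median of all genes shifted to -0.11, so the direction of small differences between the control groups depends on the scaling.

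With the siRNA controls as the comparison group, which leaves the inhibitor controls out, none of the 56 members was called in the inhibitor libraries. limma gave an unadjusted p under 0.05 for 10 of them, beside 1599 of all 12846 genes. After adjustment it called 5 of all genes (0.0389%, with 0.0311% higher and 0.00778% lower). The median of the members was -0.03, beside -0.01 over all genes, and the estimates ran between -0.38 ± 0.24 for LSM10 (limma adjusted p 0.537) and 0.22 ± 0.07 for SNRNP48 (limma adjusted p 0.299). SNRPA1 stood at -0.34 ± 0.17 (limma adjusted p 0.437), U2AF1 at 0.14 ± 0.15, PRPF8 at -0.28 ± 0.11 and SF3B14 at 0.13 ± 0.07. These estimates do not show that the levels were equal. RNA28S5 stood at -2.50 in this comparison (limma adjusted p 0.26), and its part in the estimates was not tested. The same 4 genes stood at -2.31, -2.03, -1.55 and 0.55 against the inhibitor controls.

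**Figure D4:**
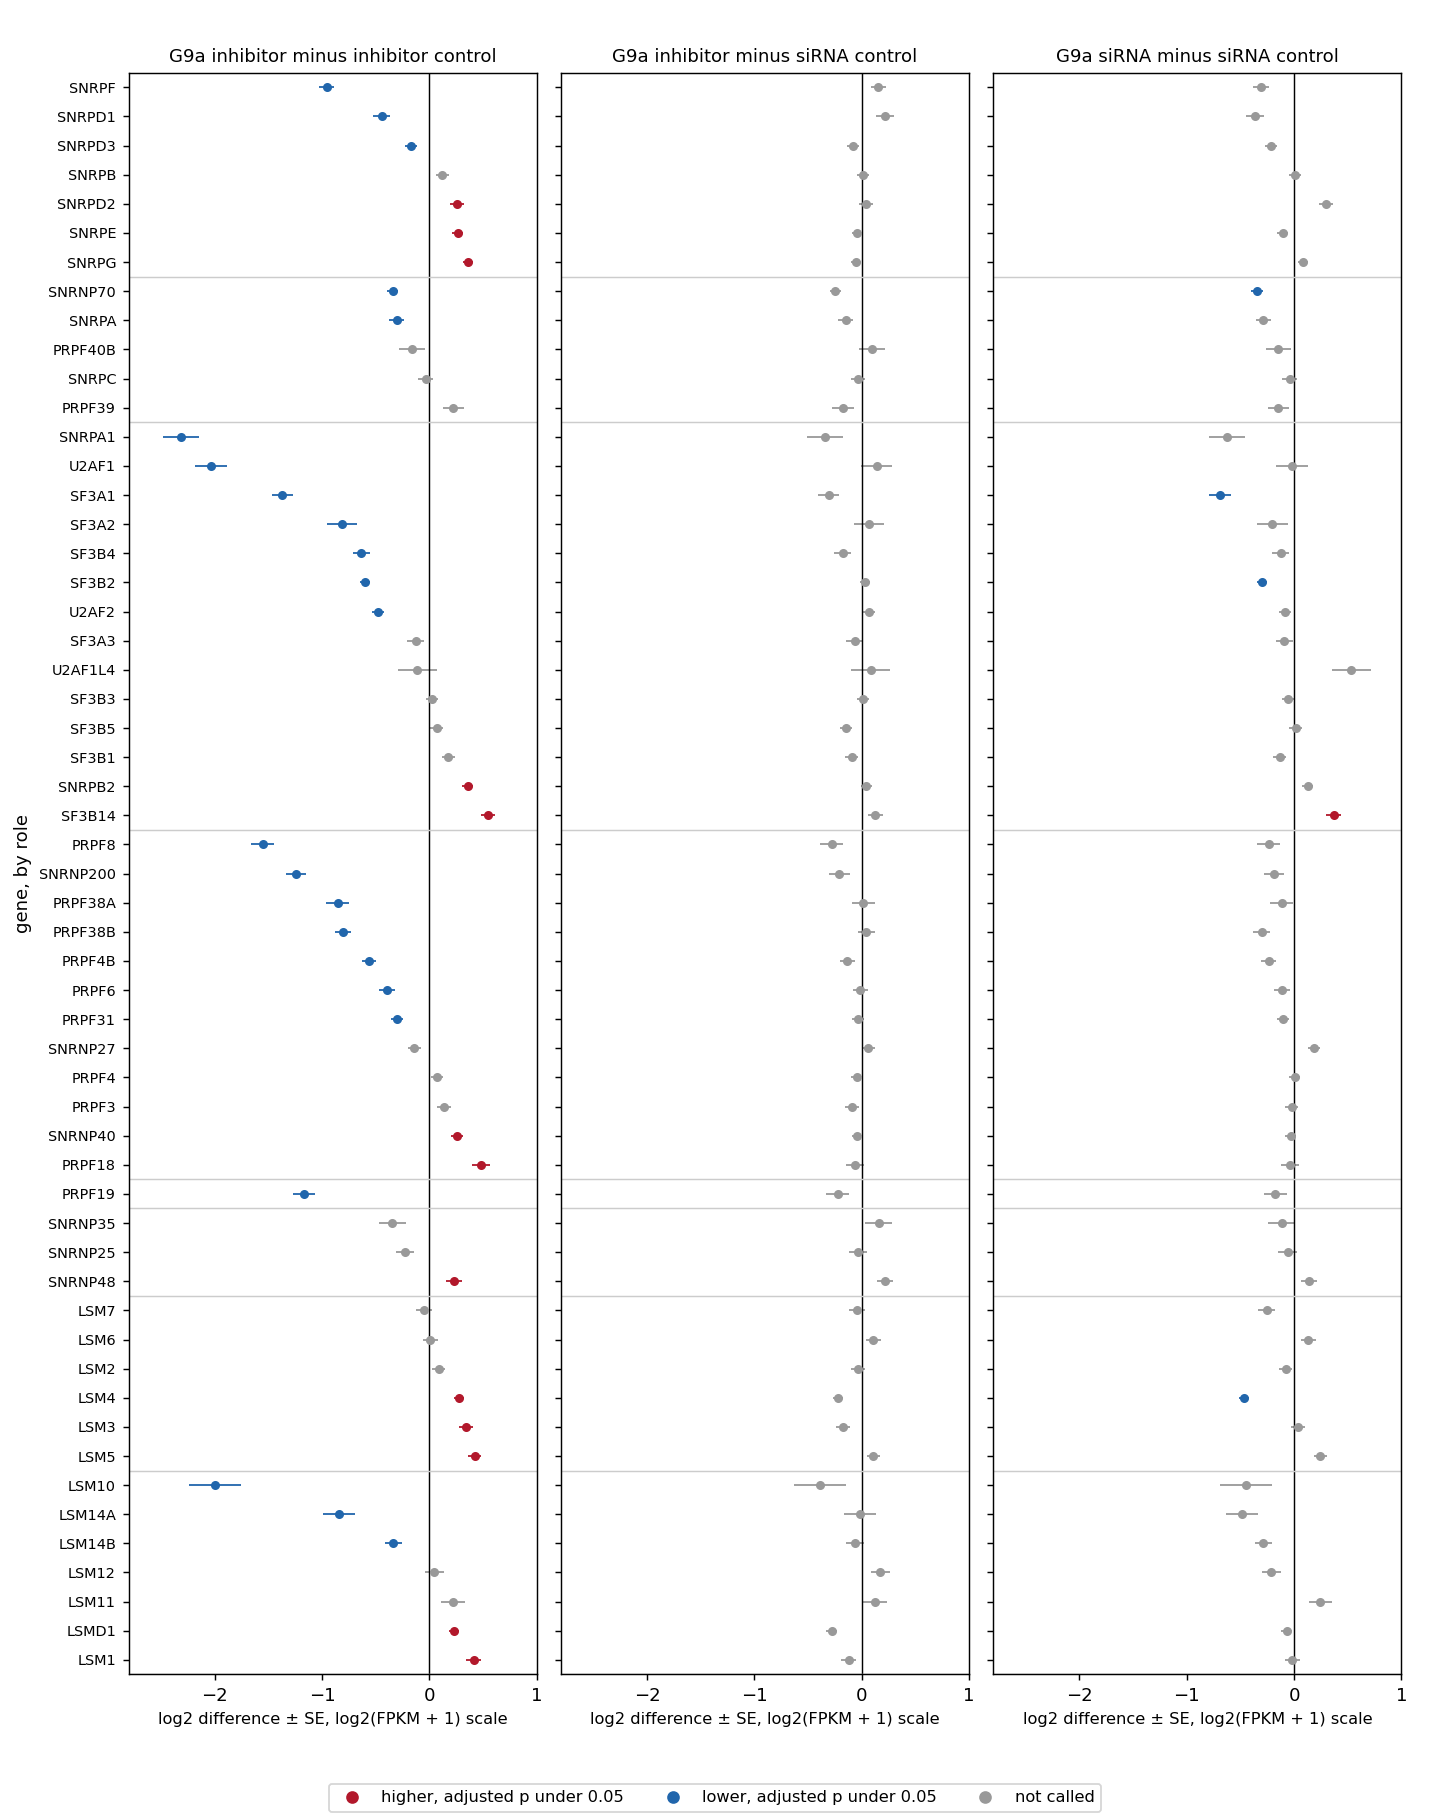
Log2 difference with its SE for 55 of the 56 tested members in 3 comparisons: inhibitor minus inhibitor control, inhibitor minus siRNA control, and siRNA minus siRNA control. Red and blue points mark genes with a limma adjusted p under 0.05: 36 in the first panel, 0 in the middle panel and 5 in the third.

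In the siRNA libraries, against the siRNA controls, 4 members fell and 1 rose, beside 1.32% and 0.802% of all genes (2.13% in either direction). The median of the members was -0.10, beside -0.01 over all genes. An unadjusted limma p under 0.05 was found for 21 of the 56, beside 2670 of all 12846 genes. LSM4 (chromosome 19, 18417040 to 18434084) had 165 and 159 FPKM in the siRNA libraries, against 221 and 227 in the siRNA controls, a log2 difference of -0.46 ± 0.05 (SE, limma adjusted p 0.00655). For this gene the siRNA controls were the 2 highest libraries of all. The call was lost in 2 of 18 alternatives, without siRNA control library 2 and without the filter on low values (adjusted p up to 0.0592). SF3A1 had 10.1 and 12.04 FPKM in the siRNA libraries against 17.0 and 19.8 in the siRNA controls (-0.69 ± 0.10, limma adjusted p 0.0222). It was lost in 7 alternatives, among them the removal of siRNA library 1 or siRNA control library 2 (adjusted p up to 0.163).

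Among the other calls, SF3B2 had 55.1 and 54.9 FPKM in the siRNA libraries against 67.4 and 68.6 in the siRNA controls (-0.30 ± 0.05, limma adjusted p 0.0259), with 70.2 and 68.8 in the inhibitor libraries and 106 and 105 in the inhibitor controls. SNRNP70 had 53.3 and 56.9 FPKM in the siRNA libraries against 68.4 and 71.9 in the siRNA controls (-0.34 ± 0.05, limma adjusted p 0.0266). SF3B14 had 161 and 160 FPKM in the siRNA libraries against 134 and 115 in the siRNA controls (0.37 ± 0.07, limma adjusted p 0.0407). The calls of these 3 genes were lost in 12 to 14 alternatives, with adjusted p up to 0.218 for SF3B2, 0.186 for SNRNP70 and 0.244 for SF3B14, and the removal of either siRNA library or of siRNA control library 2 was among them. Without siRNA control library 2, no member was called. SNRPA1 had the next largest estimate of a decrease (-0.62 ± 0.17, limma adjusted p 0.0845, not called), and U2AF1 had none (-0.02 ± 0.15).

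Set beside each other, SF3A1, SF3B2, SNRNP70 and SF3B14 had estimates of the same sign in both treatments, each against its own control. LSM4 did not: 0.28 with the inhibitor and -0.46 with the siRNA, and the difference between the effects was called (0.74 ± 0.07, limma adjusted p 0.000738). These genes were taken by their siRNA calls, and the share of all genes with matching signs was not counted. Against the siRNA controls, the inhibitor libraries stood at -0.31 for SF3A1, 0.03 for SF3B2, -0.24 for SNRNP70 and 0.13 for SF3B14, none called. Over all members the inhibitor effect and the siRNA effect differed for 22 of 56, with the inhibitor effect higher for 8 and lower for 14, beside 5.16% and 6.67% of all genes (11.8% in either direction). The largest gap was at U2AF1 (-2.01 ± 0.21, limma adjusted p 0.00123). Of these 22 calls, 3 held in every alternative. SNRNP70 had nearly the same estimate in both treatments (a difference of 0.00 ± 0.08).

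Spliceosome genes outside the symbol rule were also counted, from a list of 65 tested genes. With the inhibitor, against its control, 18 rose (27.7%, beside 17.7% of all genes) and 21 fell (32.3%, beside 18.7%). In the subset of U2, U5 and tri-snRNP proteins 11 of 19 fell (57.9%) and 2 rose (10.5%), and in the Prp19 and activation complex 7 of 17 rose (41.2%) and 4 fell (23.5%), against the same shares of all genes. These subsets were not tested against each other. The smallest p-values were those of DDX46, a helicase of the U2 step (-0.89 ± 0.06, limma adjusted p 2.87e-05), SART1, a tri-snRNP protein (-1.02 ± 0.08, limma adjusted p 5.72e-05), and RBM17, a splicing factor of the early complex (-1.22 ± 0.11, limma adjusted p 8.57e-05). RBM17 had 27.2 and 26.0 FPKM in the inhibitor libraries against 66.7 and 59.9 in the inhibitor controls, and 16.1 and 20.7 in the siRNA libraries against 26.2 and 25.3 in the siRNA controls. With the siRNA, 3 of the 65 fell (4.62%, beside 1.32% of all genes) and 0 rose (beside 0.802%). The 3 were ZCRB1 (-0.50 ± 0.08, limma adjusted p 0.0266), a U11/U12 protein, HTATSF1 (-0.35 ± 0.06, limma adjusted p 0.0319), a U2-associated factor, and GEMIN4 (-0.50 ± 0.10, limma adjusted p 0.0475), a subunit of the SMN complex that loads Sm rings. With the inhibitor against the siRNA controls, 0 of the 65 were called by limma, beside 0.0389% of all genes. An unadjusted limma p under 0.05 was found for 9 of the 65, beside 1599 of all 12846 genes. The smallest limma adjusted p of the 65 was 0.165, for TXNL4A, a small U5 protein.

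The members that rose and fell in the inhibitor libraries differed in base composition, which the symbol rule did not use. The longest coding transcript had a median of 41.4% G and C in the 14 members that rose, 52.7% in the 23 that fell and 48.9% in the 19 that were not called. Median transcript length was 1657, 2548 and 2259 bases in the same order. Across the 56 members, Spearman's rho between GC content and the inhibitor difference was -0.289, and across 10889 genes with a transcript it was -0.271. For length the values were -0.206 and -0.172. These are correlations across genes of the same libraries and carry no test, and the members lay close to all genes in both. Of the 56 members, 21 overlap another tested gene, and the sources used here do not say whether counting used the strand.

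The 2 libraries of a group differed by a median of 0.06 to 0.09 in log2 over the members, and the 2 runs of a library, which were averaged, by a median of 0.08 to 0.16. The group means differed by a median of 0.34 between inhibitor and inhibitor control, 0.14 between siRNA and siRNA control, 0.32 between siRNA control and inhibitor control, and 0.10 between inhibitor and siRNA control. The differences of 0.14 and 0.10 were above every median between libraries of a group and within the range of the medians between runs. A group mean averages libraries and runs, while the runs were compared singly, so these medians are not like for like. Of the 37 inhibitor calls, 27 held in every alternative, among them all 7 decreases larger than 1 in log2, and none turned its direction. For the siRNA, 0 of 5 did so. Every alternative kept the inhibitor controls as the reference of the inhibitor calls, so none of them probed that choice. With the siRNA controls as the reference, 0 of the 56 members were called in the inhibitor libraries.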

How the data were processed

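Total RNA of HCT116 cells was sequenced from stranded libraries, per the labels' protocols. The authors deposited FPKM per gene, made with Cufflinks per the file headers. The submitters' processing notes also name STAR 2.3.0e, SAMtools 0.1.19 and hg19. The sources used here give no Cufflinks version or options. Since FPKM is relative to the mapped total, very abundant RNAs can move every other gene.

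The 16 files were read as 8 libraries with 2 runs each, and runs were averaged. Depth implied by the Cufflinks confidence bounds, taken as counting error alone, was 2.023 to 6.937 per run in units of 1000000 fragments, which limits low genes most. The 12846 genes tested had a mean of 1 FPKM or more and a locus of 300 bases or longer. Scaling between libraries used the median of ratios. log2(FPKM + 1) was tested with limma 3.58.1 in R 4.3.3, with a mean-variance trend and all 4 groups in 1 fit with 4 residual degrees of freedom. A run on simulated data came first. It changed few genes and held no control group that stood apart, so it cannot vouch for the calls here. A fold change on the log2(FPKM + 1) scale understates the change of low genes. Levels are scaled FPKM per library, and mean ± SD where given. Coordinates are those of the files in hg19. GC content and length come from the longest coding transcript of a later annotation.

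The members, their roles and the list of other spliceosome genes were chosen with earlier results of these data known. The values of 1 member are not reported here, though it is in every count over the 56 members. Every library's value is given for the 10 largest decreases and 5 largest increases with the inhibitor, for members called with the siRNA, for the 10 smallest p-values of the difference between effects, and for the most abundant member of each role. Alternatives were other scalings, pseudocount, filters, single runs, a robust fit, a replicate block, fits with fewer groups, and each library left out.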

Additional observations from a re-analysis of the deposited data

Results flagged for a closer look

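For 22 members the inhibitor effect, against the inhibitor controls, and the siRNA effect, against the siRNA controls, differed by limma's test of that difference. The values here are the inhibitor effect minus the siRNA effect in log2, for 21 of them. Below zero were U2AF1 (-2.01), SNRPA1 (-1.69), LSM10 (-1.55), PRPF8 (-1.32), SNRNP200 (-1.05) and PRPF19 (-0.99). Smaller differences of that sign were found for PRPF38A (-0.74), SF3A1 (-0.68), SNRPF (-0.65), SF3B4 (-0.51), PRPF38B (-0.50), U2AF2 (-0.39), SNRNP27 (-0.33) and SF3B2 (-0.30). Above zero were LSM4 (0.74), PRPF18 (0.51), LSM1 (0.43), SNRPE (0.37), LSMD1 (0.30), SNRNP40 (0.29) and SNRPG (0.28). The inhibitor controls enter all 22 differences. For LSM4 the siRNA effect (-0.46) was larger in size than the inhibitor effect (0.28). For SNRNP27 neither effect was called alone, and the siRNA libraries (23.9 and 24.3 FPKM) overlapped the inhibitor controls (24.4 and 24.2). Of the 22 calls, 19 were lost in at least 1 alternative analysis. The differences of LSM4, U2AF1 and PRPF8 held in every alternative. Groups of 2 libraries are too small to look for single outlying libraries.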

How the results depend on the processing

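No called member turned its direction under any alternative, and each alternative compared the same groups. Without scaling, that is with the FPKM as deposited, the inhibitor comparison with its own control had 7 members higher and 3112 genes called, the siRNA comparison 0 higher, 2 lower, a member median of -0.1574 and 134 genes, and the difference of effects 2 higher, 8 lower and 738 genes. The siRNA controls then had 5 members higher than the inhibitor controls with a median of -0.2332, and the inhibitor against the siRNA controls had a median of 0.083 and 32 genes. Quantile normalization gave medians of -0.0598 (inhibitor) and -0.0123 (inhibitor against siRNA controls) and 2 members higher with the siRNA, and the robust fit gave 2 there and 11 genes for the inhibitor against the siRNA controls. Without the filter on low values the inhibitor median was -0.0889 with 2996 genes, the siRNA comparison had 0 members in either direction and 5 genes, the difference of effects 1 higher, 3 lower and 239 genes, the control comparison 3175 genes and the inhibitor against the siRNA controls 0 genes. With short genes kept, the siRNA comparison had 0 higher, 1 lower and 22 genes, the difference 5 higher, and the inhibitor against the siRNA controls 12 genes. The first run alone gave 3117 genes (inhibitor), 0 higher, 1 lower and 31 genes (siRNA), 2 higher, 7 lower and 526 genes (difference), 3212 genes (controls), and a median of -0.0523 with 1 gene (inhibitor against siRNA controls). The second run alone gave 0 higher, 1 lower and 45 genes (siRNA), 3 higher and 717 genes (difference), and 2 genes (inhibitor against siRNA controls). With only the groups of the comparison in the fit, the siRNA comparison had 0 higher, 1 lower and 24 genes. Leaving out the SNRNP symbols, an alternative chosen after seeing the data, moved the inhibitor median to -0.0471.

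Libraries of the same number did not deviate together between groups (correlations of -0.0978 to 0.0482), so the numbers do not pair them. A replicate block gave 0 members higher, 2 lower and 68 genes for the siRNA, and 5 higher for the difference of effects.

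Leaving out 1 library at a time, the inhibitor comparison had 11 to 15 members higher, 20 to 24 lower, a median of -0.1549 to -0.0391 and 2668 to 4774 genes. The siRNA comparison had 0 to 3 higher, 0 to 5 lower, a median of -0.123 to -0.0703, and 10 (without siRNA control library 2) to 423 genes (without siRNA control library 1). The difference of effects had 1 to 5 higher, 6 to 15 lower, a median of -0.0661 to 0.024 and 488 to 1464 genes. The control comparison had 13 to 16 higher, 19 to 22 lower, a median of -0.126 to -0.0427 and 3455 to 4851 genes. The inhibitor against the siRNA controls had 0 members called throughout, a median of -0.0393 to -0.0112 and 0 to 43 genes. The causes of these shifts were not tested. Depth limits the lowest members most, with an implied 4.97 fragments for U2AF1L4 in the library where that number was lowest.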
